A study of Macaca mulatta with 10 samples.

Results

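The Wnt ligands, their receptors and their secreted modulators were examined as a group in RNA-Seq of fat and muscle of rhesus monkeys. Members were the genes whose symbol began with WNT, FZD, SFRP, DKK or RSPO and a digit, together with *LRP5* and *LRP6*. The rule found 29 of the 28595 genes in the deposited tables, namely 12 Wnt ligands, 3 R-spondins, 6 frizzled receptors, 2 co-receptors, 3 secreted frizzled-related proteins and 3 dickkopf proteins. Each symbol stood on 1 row, so no choice between rows was needed. Only 15556 of the genes (54.4%) could be given a symbol, and 13 further symbols of the rule, among them *WNT5A*, *WNT11*, *WNT4*, *FZD7*, *FZD5* and *SFRP5*, had no row and were not analysed here.

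Wnt ligands are secreted, lipid-modified glycoproteins that bind a frizzled receptor together with the co-receptor LRP5 or LRP6, which stops the breakdown of β-catenin and lets it act with TCF/LEF factors in the nucleus. R-spondins raise the amount of frizzled at the cell surface by taking away the membrane E3 ligases that remove it, secreted frizzled-related proteins bind ligands outside the cell, and DKK1 and DKK4 block the co-receptors. In the mouse, Wnt signalling through β-catenin is known to hold back the formation of fat cells and to take part in the growth and repair of muscle.

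The animals were 1 hyperinsulinemic monkey, labelled rhesus_950807, and 4 control monkeys, labelled rhesus_920401, rhesus_940129, rhesus_940313 and rhesus_950509, and values of the controls are listed in this order throughout. The study describes a heterozygous nonsense mutation of *PRKD2* (K410X) in the hyperinsulinemic monkey. All 5 animals were male, and each gave 1 fat and 1 muscle library, 10 libraries in all, made from poly(A) RNA with a strand-specific protocol. The labels name the tissues only as fat and muscle. With a single hyperinsulinemic monkey, what belongs to its state, its genotype or the individual cannot be told apart, and the fits assume that it varies as the 4 controls do.

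The libraries held 30669915 to 43268985 mapped reads. Fat and muscle markers matched the labels in that *ADIPOQ*, the adipocyte hormone adiponectin, was at 631 to 1491 RPKM in the 5 fat libraries and at 2.06 to 15.4 RPKM in muscle, while *ACTA1*, skeletal muscle actin, was at 24384 to 34057 RPKM in muscle. Of the 9 adipocyte markers tested 8 were called higher in fat of the controls and 1, *FABP4*, a fatty acid carrier, went against the label, at 0.25 to 3.44 RPKM in fat and 27.7 to 68.7 RPKM in muscle. The fat libraries of rhesus_920401 and rhesus_940313 stood apart, with *ACTA1* at 101 and 80.9 RPKM against 0.44 to 1.72 RPKM in the other 3, so some muscle RNA was present in them. Summed markers of mesothelium, the lining of visceral fat, were at 1649 RPKM in fat of the hyperinsulinemic monkey and 787 to 2550 RPKM in control fat, and at no more than 1.08 RPKM in muscle. In these bulk samples, fewer cells of a type and less RNA per cell cannot be told apart.

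The summed level of the members was higher in fat than in muscle of the controls. RPKM, the reads of a gene per kilobase of its longest transcript and per 1000000 mapped reads, summed over the 29 members to 194 ± 39.6 in control fat and 31.7 ± 5.38 in control muscle (SD, n = 4 each). In control fat the highest members were *FZD4* (40.8 ± 16 RPKM), *SFRP1* (26.8 ± 10.7 RPKM), *DKK3* (26.7 ± 10.3 RPKM), *SFRP4* (20.7 ± 8.5 RPKM) and *LRP5* (17.3 ± 5.98 RPKM), neighbours that did not differ beyond their spread. In control muscle *LRP5* led (10.1 ± 2.08 RPKM), above *SFRP2* (4.96 ± 3.45 RPKM), *FZD4* (2.49 ± 0.273 RPKM), *SFRP4* (2.44 ± 1.30 RPKM) and *WNT9A* (2.37 ± 0.832 RPKM), where *LRP5* overlapped only *SFRP2* and the last 4 overlapped one another.

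An average of 1 RPKM or more over the 5 libraries of a tissue was reached by 16 members in fat, 9 in muscle and 8 in both tissues. The other 12 of the 29 were lower in both. Of these, *RSPO4*, *WNT7A*, *WNT8A*, *WNT8B* and *WNT16* had no read in any library, so that each was listed at 0, and *WNT1* had 1 read in all. The remaining low members were *DKK4*, *FZD3*, *WNT3*, *WNT5B*, *WNT7B* and *WNT9B*. In RPKM every control fat library stood above every control muscle library for 13 of the 29 members, 11 of them among the 14 tested below, where 65% of all genes tested stood so. Every control muscle library stood above every control fat library for *DKK4* and *FZD10* alone. Neither was among the 14 members tested between the tissues with the filter of 1 RPKM, and 8.47% of all genes tested there stood so. The groups overlapped or were all at 0 for 14 members.

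**Figure D1:**
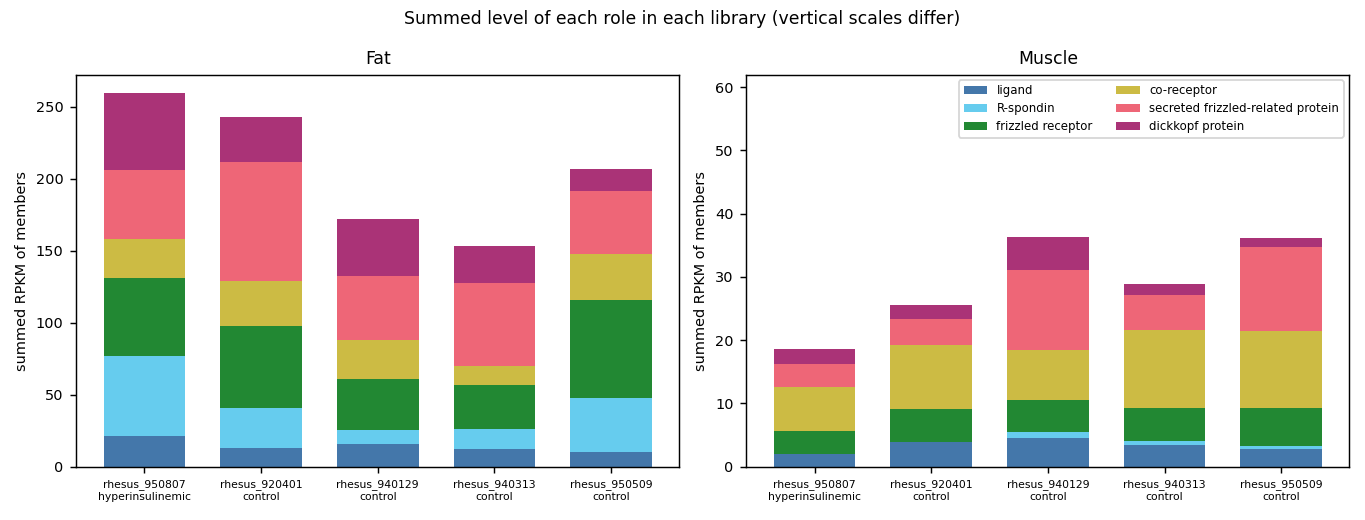
Stacked bars give the summed RPKM of the members of each role in each library, fat on the left and muscle on the right, with vertical scales that differ. The member sum of the hyperinsulinemic monkey was 259 RPKM in fat, above the 153 to 243 RPKM of the controls, and 18.6 RPKM in muscle, below the 25.6 to 36.3 RPKM of the controls. In RPKM, 27.9% of all genes tested in fat lay above every control in this animal and 7.8% below. In muscle these shares were 34.9% and 15.2%.

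The balance between the roles also differed by tissue. The secreted frizzled-related and dickkopf proteins together held 28.5% to 54.2% of the member sum in control fat and 24.9% to 49.2% in control muscle, ranges that overlapped. The co-receptors held 8.74% to 15.8% in control fat and 21.8% to 42.8% in control muscle, without overlap. R-spondins showed the opposite arrangement, with 5.68% to 18.2% in control fat and 0.20% to 2.32% in control muscle.

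How the tissues of the control monkeys differed was tested two-sided on read counts by the quasi-likelihood method of edgeR, in the 11173 genes that averaged 1 RPKM or more in the 8 control libraries. A gene was called at a Benjamini-Hochberg adjusted p under 0.05 and an absolute log2 difference of at least 1. Of the 29 members 14 could be tested and 10 were called, 9 of them higher in fat and 1, *WNT9A*, higher in muscle. Over all genes, 29.6% were called higher in fat and 22% higher in muscle. The tested members *FZD6*, *LRP6*, *RSPO1*, *RSPO3*, *WNT2B* and *WNT10B*, 6 in all, passed the filter through fat alone, so their direction was partly set by it, and the other 8 were at 1 RPKM or more in both tissues.

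The scaling matters to this comparison, since few genes dominate muscle, so that the top 10 held 5.35% to 8.09% of all gene reads in a fat library but 30.3% to 32.9% in a muscle library. TMM, the scaling used for the test, corrects for such genes, and the median log2 difference of all genes was then 0.23. Scaled to mapped totals, as RPKM is, the median of all genes was 1.61 and 89.8% of the called genes were higher in fat, against 57.4% with TMM. The median of the 14 tested members was 2.43 with TMM and 3.81 with mapped totals. The 9 members called higher in fat were called in that direction under both scalings, whereas *WNT9A* was not called with mapped totals and *FZD8* and *WNT10B* were called higher in fat with mapped totals but not with TMM. Mapped totals thus gave 11 of the 14 tested members higher in fat and 0 higher in muscle. Over all 11173 genes tested, 7040 were called higher in fat and 799 higher in muscle with that scaling.

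**Figure D2:**
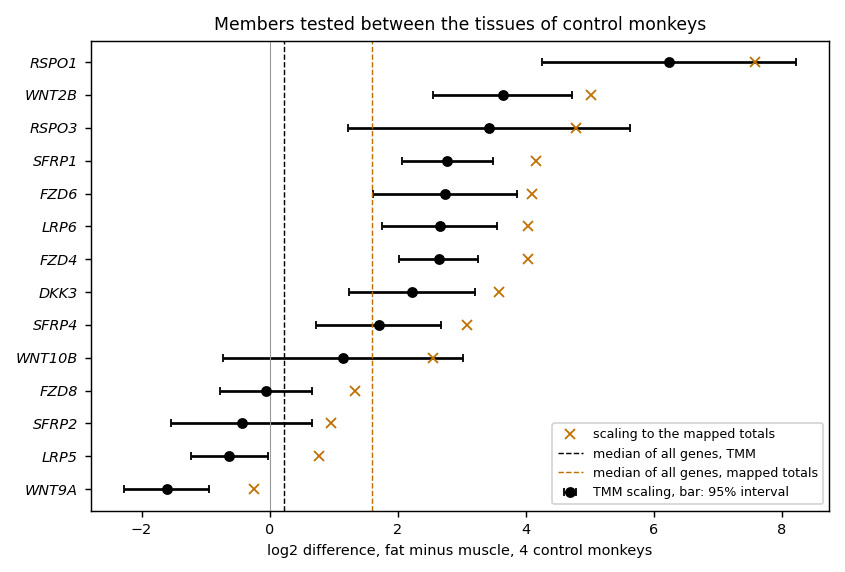
Points give the log2 difference, fat minus muscle, of the 14 tested members in the 4 control monkeys with TMM scaling (bars, 95% interval), crosses the same with mapped totals, and dashed lines the median of all genes at 0.23 and 1.61. *RSPO1* at 6.24 and *WNT9A* at −1.61 mark the ends of the range, and *FZD8*, *LRP5* and *SFRP2* change sign between the scalings.

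A lower filter, a mean of 10 reads over the 8 libraries, let 21 members and 14045 genes be tested in the same way. It called 12 members, 10 higher in fat and 2 higher in muscle, where 28.1% of all genes were called higher in fat and 20% higher in muscle. The 2 calls that it added were *DKK1* in fat and *FZD10* in muscle, each of which passed this filter through that tissue alone, so their direction was set by it. *FZD2*, *FZD3*, *WNT3*, *WNT5B* and *WNT9B* were tested there and not called.

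Whether the hyperinsulinemic monkey differed from the controls was tested in each tissue alone. In muscle 0 of 8306 genes were called by edgeR at an adjusted p under 0.05 (background 0%), 754 had an unadjusted p under 0.05, and DESeq2 called 88. Of the 9 members tested there, 0 were called by either tool and 3, *FZD10*, *LRP5* and *SFRP4*, had an unadjusted p under 0.05 in edgeR (6 in DESeq2). All 9 log2 differences were below 0, with a median of −0.86, while 47.6% of all genes were above 0 and their median was −0.03.

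In fat, likewise, 0 of 11981 genes were called by edgeR (background 0%), 286 had an unadjusted p under 0.05, and DESeq2 called 11. None of the 16 members tested was called by either tool, and *WNT2B* alone had an unadjusted p under 0.05 in edgeR. Of the 16 log2 differences 9 were above 0, their median was 0.06 and that of all genes −0.06.

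In RPKM, the hyperinsulinemic monkey lay below every control in muscle for 5 of the 9 tested members, *FZD4*, *FZD10*, *LRP5*, *SFRP1* and *SFRP2*, against 15.2% of all genes tested, and above every control for 0 of 9, against 34.9%. After TMM scaling it was below every control for 8 of the 9, against 23.7% of all genes. In fat it lay above every control for 5 of the 16 tested members, *DKK1*, *DKK3*, *RSPO1*, *RSPO3* and *WNT2B*, a share of the order of the 27.9% of all genes, and below every control for *WNT10B* alone, against 7.8%. The fat count above was 5 after TMM scaling too, where the share of all genes was 15.7%. For a single gene, 1 animal against 4 cannot give an exact permutation p, two-sided, under 0.2.

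**Figure D3:**
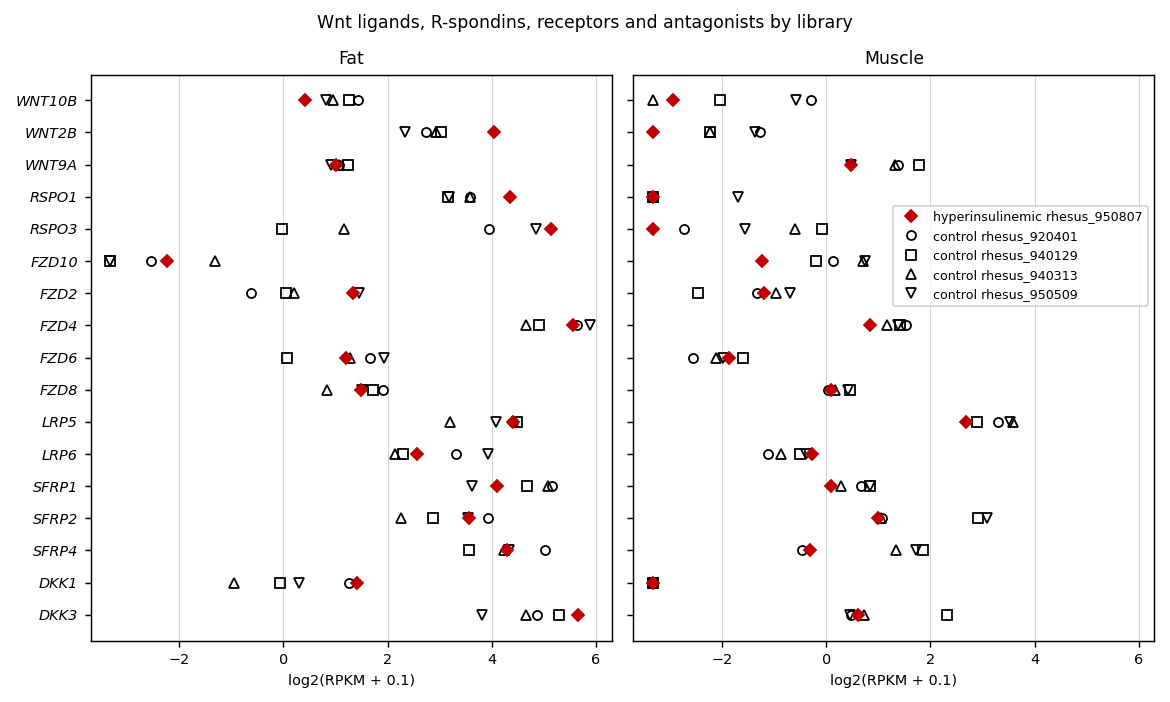
Each row is 1 member that averaged 1 RPKM or more in either tissue, and each symbol 1 library on a log2(RPKM + 0.1) scale, the hyperinsulinemic monkey as filled diamonds and the 4 controls as open symbols. The points of fat lie to the right of those of muscle for most rows, and the controls of *RSPO3* in fat are spread from 0.88 to 28.6 RPKM.

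Among the ligands, *WNT2B*, which acts with WNT2 in lung formation in the mouse, was the leading member in fat and held 49.6% to 76.5% of the ligand RPKM there in the 5 animals. The gene (ENSMMUG00000007765) lies on chromosome 1 from 115498933 to 115510938, plus strand, and overlaps an unnamed row of the same strand that could share reads with it. In fat it was at 16.4 RPKM in the hyperinsulinemic monkey, against 6.54, 8.10, 7.47 and 4.98 RPKM in the controls. In muscle it had no read in the hyperinsulinemic monkey and was at 0.31, 0.11, 0.11 and 0.29 RPKM in the controls, from 5 to 15 reads.

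The fat of the hyperinsulinemic monkey thus stood above all 4 controls, which lay close together, and its muscle below them. Between the tissues of the controls *WNT2B* was higher in fat by 3.64 on the log2 scale (standard error 0.495, edgeR adjusted p = 7.3e-05), for a gene that passed the filter through fat alone. The log2 difference of the hyperinsulinemic monkey from controls in fat was 1.07 (standard error 0.467, 95% interval 0.03 to 2.11), with an unadjusted p of 0.0451 and an adjusted p of 0.9999 in edgeR, and so did not pass the test. In muscle, taking 3 reads as the limit that a count of 0 allows, its level was at least 2.90-fold lower in the hyperinsulinemic monkey than the control mean, for counting error only.

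*WNT9A*, which acts in joint formation in the mouse, was the leading ligand in muscle, with 46.6% to 72.6% of the ligand RPKM. Its fat level was 1.91 RPKM in the hyperinsulinemic monkey, against 2.0, 2.25, 1.99 and 1.78 RPKM in the controls. In muscle it was at 1.29 RPKM in the hyperinsulinemic monkey, against 2.49, 3.32, 2.40 and 1.29 RPKM in the controls. The control values of fat and muscle overlapped, and the hyperinsulinemic monkey lay within the control range in fat and level with the lowest control in muscle.

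Relative to the other genes, after TMM scaling, *WNT9A* was higher in muscle of the controls, with a log2 difference of −1.61 for fat minus muscle (standard error 0.302, edgeR adjusted p = 0.00073). With mapped totals the difference was −0.24 (adjusted p = 0.491), and limma on log2(RPKM + 1), with a pseudocount of 1, gave −0.13, so the call rests on the scaling. For the hyperinsulinemic monkey against controls the log2 difference was −1.04 in muscle (95% interval −2.17 to 0.09) and −0.27 in fat (95% interval −1.43 to 0.89), neither of which passed the test.

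*WNT10B*, which holds back fat cell formation in the mouse, was low in both tissues. Fat libraries held it at 1.23 RPKM in the hyperinsulinemic monkey, against 2.61, 2.29, 1.83 and 1.67 RPKM in the controls. Its muscle level was 0.03 RPKM in the hyperinsulinemic monkey, from 2 reads, against 0.72, 0.14, 0 and 0.56 RPKM in the controls. All control fat libraries were above all control muscle libraries, and the hyperinsulinemic monkey lay below every control in fat.

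The tissue difference of *WNT10B* was 1.14 on the log2 scale with TMM (standard error 0.858, edgeR adjusted p = 0.262) and was not called, while it was called with mapped totals (2.55, adjusted p = 0.0176). The gene passed the filter through fat alone. In fat the log2 difference of the hyperinsulinemic monkey from controls was −0.96 (95% interval −2.43 to 0.51, edgeR adjusted p = 0.9999). *WNT10B* (chromosome 11, 46092064 to 46098149, minus strand) lies 7474 bases from *WNT1*, which is on the plus strand and had its single read in fat of control rhesus_950509.

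The other ligands stayed under 1 RPKM on average in both tissues. *WNT3*, a ligand of limb formation in the mouse, was at 0.85 RPKM in fat of the hyperinsulinemic monkey, against 0.43, 0.88, 0.16 and 1.04 RPKM in the controls. In muscle it had no read in the hyperinsulinemic monkey and was at 0.23, 0.15, 0.50 and 0.55 RPKM in the controls, from 9 to 36 reads, which makes it at least 6.74-fold lower in the hyperinsulinemic monkey than the control mean. The value in fat of the hyperinsulinemic monkey lay within the range of the controls.

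*WNT9B*, which acts in kidney formation in the mouse, lies 55770 bases from *WNT3* on chromosome 16 and ranged from 0.08 to 1.07 RPKM over the fat libraries and from 0.05 to 0.28 RPKM over those of muscle. *WNT5B* ranged from 0.05 to 1.05 RPKM in fat and from 0 to 0.62 RPKM in muscle. *WNT7B* was detected only in fat of 3 controls, at 0.10 to 0.24 RPKM from 10 to 18 reads, which is at least 4.37-fold higher in control fat than in control muscle by the limit of 3 reads per library.

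The R-spondins *RSPO1* and *RSPO3* were measured at 0.88 RPKM or more in fat and at 0.84 RPKM or less in muscle of all 5 animals. *RSPO1*, which is needed for ovary formation in humans, was at 20.2 RPKM in fat of the hyperinsulinemic monkey, against 11.8, 8.88, 11.8 and 9.01 RPKM in the controls. In muscle it had 6 reads in control rhesus_950509 (0.21 RPKM) and none in the other 4 libraries. The 4 controls were close together in fat, and the hyperinsulinemic monkey lay above them all.

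Between the tissues of the controls *RSPO1* was higher in fat by 6.24 on the log2 scale (standard error 0.906, edgeR adjusted p = 0.00012), a fitted value that rests on 6 muscle reads and was 10.7 without rhesus_950509, the control that had them. The gene passed the filter through fat alone. In fat the log2 difference of the hyperinsulinemic monkey from controls was 0.76 (95% interval −0.25 to 1.78, edgeR adjusted p = 0.9999).

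*RSPO3*, whose locus is associated with body fat distribution in humans, had the largest ratio of highest to lowest control fat library among the 16 members that averaged 1 RPKM or more there. In fat it was at 35.1 RPKM in the hyperinsulinemic monkey, from 3024 reads, against 15.4, 0.88, 2.14 and 28.6 RPKM in the controls, from 1032, 56, 170 and 2321 reads. In muscle it had no read in the hyperinsulinemic monkey and was at 0.05, 0.84, 0.56 and 0.24 RPKM in the controls, from 4, 62, 50 and 18 reads. The animal with the highest level in fat was thus the one with none in muscle, where the limit of 3 reads puts it at least 9.88-fold below the control mean. The 4 reads of control rhesus_920401 were close to that limit.

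Among the controls the highest fat library of *RSPO3* was 32.3 times the lowest, and 99.5% of 11848 genes had a smaller ratio. *RSPO3* was higher in fat of the controls by 3.43 on the log2 scale (standard error 1.01, edgeR adjusted p = 0.0113), but the call was lost with the animal as a replicate block (2.72, adjusted p = 0.106) and without control rhesus_950509 (2.24, adjusted p = 0.0944). This gene, too, passed the filter through fat alone. In fat the log2 difference of the hyperinsulinemic monkey from controls was 1.44 (95% interval −1.20 to 4.07, edgeR adjusted p = 0.9999) and did not pass the test. Summed over the R-spondins, fat of the hyperinsulinemic monkey held 55.3 RPKM, against 9.77 to 37.6 RPKM in control fat.

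**Figure D4:**
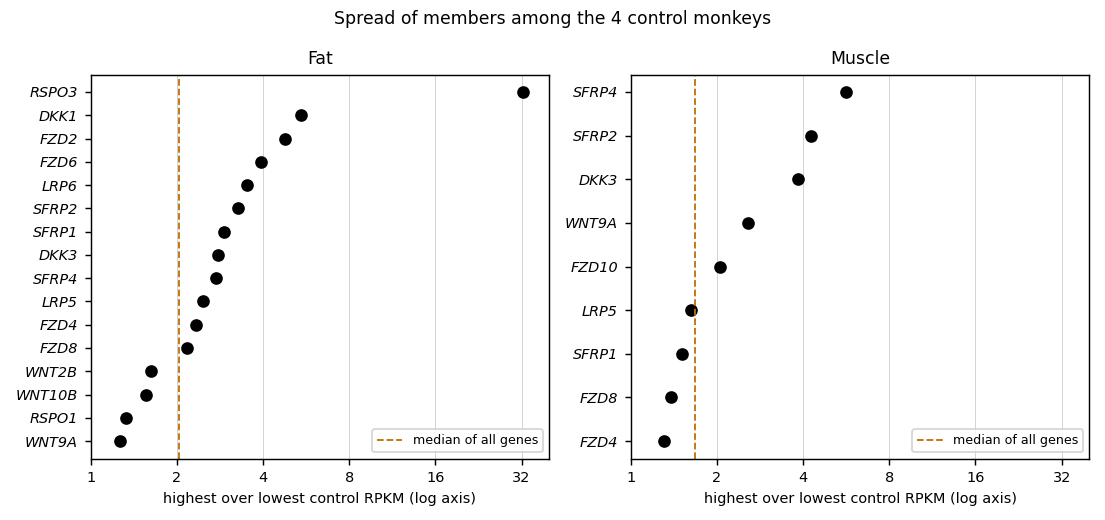
Points give the highest over the lowest control RPKM of each member that averaged 1 RPKM or more, on a log axis, and dashed lines the median of all genes, 2.03 in fat and 1.67 in muscle. *RSPO3* stands at 32.3 in fat, and *SFRP4*, *SFRP2* and *DKK3* stand highest in muscle at 5.65, 4.28 and 3.84.

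As a group the members varied more among the controls than the median gene, with a median ratio of 2.76 in fat (16 members, against 2.03 for all genes) and 2.05 in muscle (9 members, against 1.67 for 8232 genes). The exceptions in fat were *WNT9A* at 1.26, *RSPO1* at 1.33, *WNT10B* at 1.56 and *WNT2B* at 1.63, each below the median of all genes. In muscle *FZD4*, *FZD8*, *SFRP1* and *LRP5* were below it, at 1.31 to 1.63.

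Of the frizzled receptors *FZD4*, which also binds the non-Wnt ligand norrin and is known for its role in blood vessels of the retina, held 81.4% to 86.5% of the frizzled RPKM in fat and 40.5% to 53.6% in muscle. The gene (ENSMMUG00000004048) lies on chromosome 14 from 85252672 to 85260594, minus strand. Its fat level was 46.8 RPKM in the hyperinsulinemic monkey, against 49.6, 29.9, 25.1 and 58.7 RPKM in the controls. Muscle libraries held it at 1.70 RPKM in the hyperinsulinemic monkey, against 2.79, 2.56, 2.13 and 2.48 RPKM in the controls.

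Fat stood far above muscle in every animal, by 2.64 on the log2 scale in the controls (standard error 0.282, edgeR adjusted p = 1.2e-05). The hyperinsulinemic monkey lay within the control range in fat and below every control in muscle, where the log2 difference was −0.73 (95% interval −1.47 to 0.02, edgeR adjusted p = 0.568). In fat it was 0.02 (95% interval −1.09 to 1.14).

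*FZD6*, which acts with *FZD3* in planar polarity in the mouse, was at 2.21 RPKM in fat of the hyperinsulinemic monkey, against 3.06, 0.95, 2.32 and 3.73 RPKM in the controls. Muscle gave 0.17 RPKM in the hyperinsulinemic monkey, against 0.07, 0.23, 0.13 and 0.15 RPKM in the controls. It was higher in fat of the controls by 2.74 on the log2 scale (standard error 0.513, edgeR adjusted p = 0.00071), for a gene that passed the filter through fat alone. The hyperinsulinemic monkey lay within the control range in both tissues.

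*FZD3* stayed under 1 RPKM, and in fat the hyperinsulinemic monkey lay below every control. It was at 0.07 RPKM there, from 12 reads, against 0.41, 0.20, 0.37 and 0.60 RPKM in the controls, from 24 to 92 reads. In muscle it was at 0.07 RPKM in the hyperinsulinemic monkey and at 0.13, 0.23, 0.04 and 0.06 RPKM in the controls, which enclosed it. *FZD3* overlaps an unnamed row of the same strand that could share its reads.

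The tissue difference of *FZD8* changed with the scaling. The receptor was at 2.72 RPKM in fat of the hyperinsulinemic monkey, against 3.68, 3.18, 1.70 and 2.73 RPKM in the controls, and in muscle at 0.97 RPKM in the hyperinsulinemic monkey, against 0.92, 1.27, 1.03 and 1.24 RPKM in the controls. Although RPKM was higher in every control fat library, the log2 difference with TMM was −0.05 (95% interval −0.77 to 0.66, edgeR adjusted p = 0.898), while with mapped totals it was 1.34 and was called (adjusted p = 0.0041). In RPKM the hyperinsulinemic monkey lay within the range of the controls in both tissues, and after TMM scaling it lay below every control in muscle.

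*FZD2*, a receptor for WNT5A, was at 2.41 RPKM in fat of the hyperinsulinemic monkey, against 0.55, 0.94, 1.05 and 2.63 RPKM in the controls. Its muscle level was 0.34 RPKM in the hyperinsulinemic monkey, against 0.30, 0.08, 0.42 and 0.51 RPKM in the controls. The fat value of the hyperinsulinemic monkey lay near the top of the control range but inside it (log2 difference 0.70, 95% interval −1.21 to 2.61).

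*FZD10*, a frizzled of the same subfamily as *FZD4*, was the only receptor with every control muscle library above every control fat library. Fat libraries held it at 0.11 RPKM in the hyperinsulinemic monkey, against 0.07, 0, 0.30 and 0 RPKM in the controls. Muscle libraries held it at 0.33 RPKM in the hyperinsulinemic monkey, from 19 reads, against 1.0, 0.77, 1.52 and 1.57 RPKM in the controls, from 47 to 113 reads. The 2 controls with reads in fat were those whose fat held muscle RNA, while the hyperinsulinemic monkey had 8 reads at an *ACTA1* level of 1.72 RPKM. The part of that RNA in the fat values was not tested.

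With the lower filter *FZD10* was higher in muscle of the controls, at a log2 difference of −5.05 for fat minus muscle (standard error 1.05, edgeR adjusted p = 0.0014), a fitted value that rests on few fat reads, for a gene that passed the filter through muscle alone. In muscle the hyperinsulinemic monkey lay below every control, with a log2 difference of −2.07 (95% interval −3.81 to −0.33), an unadjusted p of 0.0248 and an adjusted p of 0.497 in edgeR, and so did not pass the test. Without rhesus_920401 or rhesus_940129 it was −2.18 or −2.24, and without either of the other controls *FZD10* fell under the filter.

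The co-receptors were arranged differently in the 2 tissues. *LRP5*, which is known in humans for its role in bone mass, held 52.5% to 82.3% of the co-receptor RPKM in fat and 89.6% to 96.4% in muscle. In fat *LRP5* was at 21.1 RPKM in the hyperinsulinemic monkey, against 21.0, 22.3, 9.06 and 16.8 RPKM in the controls. Muscle gave 6.3 RPKM in the hyperinsulinemic monkey, against 9.76, 7.32, 11.9 and 11.5 RPKM in the controls.

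Control fat and muscle overlapped for *LRP5*, and the log2 difference was −0.63 with TMM (standard error 0.276, edgeR adjusted p = 0.0649) and 0.77 with mapped totals. In muscle the hyperinsulinemic monkey lay below every control, with a log2 difference of −0.86 (95% interval −1.65 to −0.06), an unadjusted p of 0.0371 and an adjusted p of 0.519 in edgeR. In fat the difference was 0.10 (95% interval −1.01 to 1.21), inside the control range.

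*LRP6*, the co-receptor that is essential in the mouse embryo, was higher in fat than in muscle in every animal. It was at 5.82 RPKM in fat of the hyperinsulinemic monkey, against 9.83, 4.79, 4.31 and 15.2 RPKM in the controls. In muscle it was at 0.73 RPKM in the hyperinsulinemic monkey, against 0.36, 0.60, 0.45 and 0.67 RPKM in the controls. Its log2 difference between the tissues of the controls was 2.66 (standard error 0.409, edgeR adjusted p = 0.00018), for a gene that passed the filter through fat alone. The hyperinsulinemic monkey lay within the control range in fat and, in muscle, slightly above it in RPKM but within it after TMM scaling. *LRP6* overlaps 2 unnamed rows of the opposite strand, and the sources used here do not state whether strand was used in counting.

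All 3 secreted frizzled-related proteins were measured in both tissues. *SFRP1*, which in the mouse is known to act on fat cell formation, was at 17.1 RPKM in fat of the hyperinsulinemic monkey, against 35.4, 25.5, 33.9 and 12.1 RPKM in the controls. Its muscle level was 0.96 RPKM in the hyperinsulinemic monkey, against 1.5, 1.69, 1.12 and 1.69 RPKM in the controls. Fat lay above muscle throughout, and the hyperinsulinemic monkey lay inside the control range in fat and below every control in muscle.

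*SFRP1* was higher in fat of the controls by 2.78 on the log2 scale (standard error 0.326, edgeR adjusted p = 2.4e-05). The log2 difference of the hyperinsulinemic monkey from controls was −0.85 in fat (95% interval −2.20 to 0.50, edgeR adjusted p = 0.9999) and −0.82 in muscle (95% interval −1.82 to 0.18, edgeR adjusted p = 0.623). An unnamed row of the opposite strand overlaps this gene as well.

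*SFRP4*, which in humans is also studied as a secreted factor linked to insulin secretion, was at 19.5 RPKM in fat of the hyperinsulinemic monkey, against 32.2, 11.7, 18.7 and 20.1 RPKM in the controls. Muscle libraries held it at 0.71 RPKM in the hyperinsulinemic monkey, against 0.62, 3.52, 2.43 and 3.21 RPKM in the controls. In muscle the hyperinsulinemic monkey and control rhesus_920401 were low and the other 3 controls high, so the hyperinsulinemic monkey lay within the range.

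Between the tissues of the controls *SFRP4* was higher in fat by 1.70 on the log2 scale (standard error 0.446, edgeR adjusted p = 0.006). Without the fat libraries of rhesus_920401 and rhesus_940313 the difference was 1.35 (adjusted p = 0.0508) and was no longer called. In muscle the log2 difference of the hyperinsulinemic monkey from controls was −1.96 (95% interval −3.90 to −0.03), with an unadjusted p of 0.0473 and an adjusted p of 0.549 in edgeR, and in fat it was −0.26 (95% interval −1.39 to 0.87).

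*SFRP2* was the member of this group least tied to fat, with 8.12% to 26.3% of the group's RPKM in fat and 35.7% to 63.2% in muscle. In fat it was at 11.7 RPKM in the hyperinsulinemic monkey, against 15.2, 7.24, 4.65 and 11.5 RPKM in the controls. Muscle gave 1.90 RPKM in the hyperinsulinemic monkey, against 2.0, 7.42, 1.97 and 8.43 RPKM in the controls. Control muscle thus fell into a low and a high pair, with the hyperinsulinemic monkey just under the low pair, and the tissues overlapped.

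The log2 difference of *SFRP2* between the tissues was −0.43 (95% interval −1.53 to 0.67, edgeR adjusted p = 0.470) and was 0.96 with mapped totals. In the hyperinsulinemic monkey against controls it was −1.57 in muscle (95% interval −3.62 to 0.48, edgeR adjusted p = 0.648) and 0.12 in fat (95% interval −1.16 to 1.39).

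Of the dickkopf proteins *DKK3*, a divergent member of the family, held 92.5% to 98.4% of the dickkopf RPKM in fat and 57.7% to 93.2% in muscle. Its fat level was 50.6 RPKM in the hyperinsulinemic monkey, against 29.0, 38.8, 25.2 and 13.9 RPKM in the controls. In muscle it was at 1.42 RPKM in the hyperinsulinemic monkey, against 1.29, 4.87, 1.55 and 1.27 RPKM in the controls. Fat of the hyperinsulinemic monkey held more than any control, and in muscle control rhesus_940129 stood alone above the other 4 animals.

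*DKK3* was higher in fat of the controls by 2.22 on the log2 scale (standard error 0.448, edgeR adjusted p = 0.0012). In fat the log2 difference of the hyperinsulinemic monkey from controls was 0.71 (95% interval −0.45 to 1.87, edgeR adjusted p = 0.9999). In muscle it was −0.81 (95% interval −2.54 to 0.92, edgeR adjusted p = 0.787) and, without control rhesus_940129, −0.12.

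*DKK1*, the inhibitor of LRP5 and LRP6, was detected in fat alone. It was at 2.56 RPKM in fat of the hyperinsulinemic monkey, from 211 reads, against 2.29, 0.86, 0.42 and 1.13 RPKM in the controls, from 147, 52, 32 and 88 reads. None of the 5 muscle libraries had a read, so with 3 reads per library as the limit it was at least 29.6-fold higher in fat than in muscle of the controls. In fat the hyperinsulinemic monkey lay just above the highest control, with a log2 difference of 0.97 (95% interval −0.79 to 2.73, edgeR adjusted p = 0.9999).

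*DKK4*, which blocks the same co-receptors, was the reverse and was detected in muscle alone. It was at 0.97 RPKM there in the hyperinsulinemic monkey, from 27 reads, against 0.95, 0.38, 0.11 and 0.13 RPKM in the controls, from 30, 11, 4 and 4 reads. With no read in fat, it was at least 3.74-fold higher in muscle than in fat of the controls by the same limit, and the hyperinsulinemic monkey lay just above the highest control in RPKM but within the control range after TMM scaling.

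**Figure D5:**
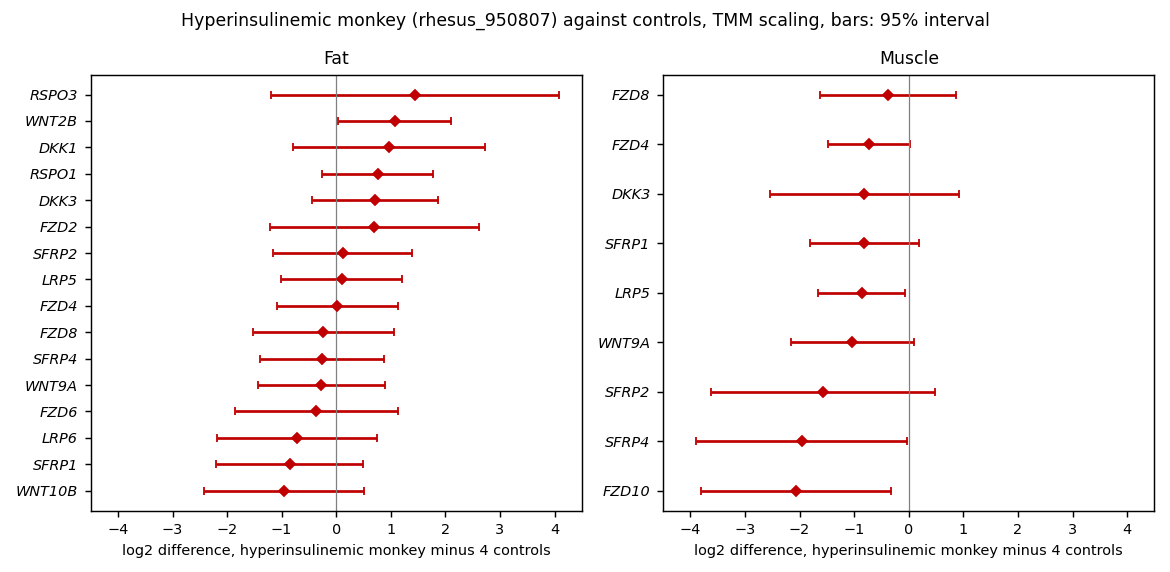
Points give the log2 difference of the hyperinsulinemic monkey minus the 4 controls for each tested member, fat on the left and muscle on the right, with TMM scaling (bars, 95% interval). In muscle all 9 points lie below 0, from −2.07 to −0.38, and in fat the 16 points lie from −0.96 to 1.44, most intervals spanning 0.

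Whether the difference of the hyperinsulinemic monkey from controls was unlike in fat and muscle was tested as an interaction in the 7938 genes that averaged 1 RPKM or more in both tissues. edgeR called 0 genes (background 0%), with 434 at an unadjusted p under 0.05, and DESeq2 called 16. Of the 8 members tested 0 were called by either tool. Their differences, fat minus muscle, were all above 0, although that of *SFRP1* changed sign with mapped totals, with other filters and when some controls were left out, and ran from 0.02 for *SFRP1* to 1.72 for *SFRP4* (95% interval −0.49 to 3.93), with edgeR adjusted p values of 0.930 to 0.999. Their median was 0.92 and that of all genes 0.01.

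Sums of some cell type markers lay outside the control range in the hyperinsulinemic monkey. In muscle the 9 smooth muscle and pericyte markers, none of which was called, summed to 65.5 RPKM in the hyperinsulinemic monkey and 109 to 157 RPKM in the controls, with a median log2 difference of −1.19. The macrophage markers summed to 12.3 RPKM in the hyperinsulinemic monkey and 14.5 to 45.0 RPKM in the controls, with a median of −1.06 over the 5 of 9 listed that were tested. Fibroblast markers, at 176 RPKM in the hyperinsulinemic monkey and 173 to 268 RPKM in the controls, and endothelial markers, at 38.5 RPKM in the hyperinsulinemic monkey and 35.1 to 54.8 RPKM in the controls, lay within the control range. Markers of T and NK cells were at 0.40 RPKM in the hyperinsulinemic monkey and 0.88 to 3.43 RPKM in the controls, while the 2 satellite cell markers were higher, at 2.94 RPKM in the hyperinsulinemic monkey and 0.46 to 1.40 RPKM in the controls. The skeletal muscle fiber markers summed to 85837 RPKM in the hyperinsulinemic monkey and 64900 to 87036 RPKM in the controls, and none was called. Among them the slow fiber genes *MYH7* and *TNNT1* were at 12.9 and 14.3 RPKM in the hyperinsulinemic monkey. The controls were at 45.5 to 531 and 69.7 to 651 RPKM. *CKM*, *MB*, *TNNC2* and *DES* of the hyperinsulinemic monkey lay within the control range. *ACTA1*, *TNNT3* and *TTN* lay above every control, *TNNT3* at 8361 RPKM against a highest control of 8290 RPKM. Of all genes tested in muscle, 34.9% lay above every control in RPKM and 15.2% below. The part of these cells and of fiber type in the lower muscle values of the frizzled, *LRP5* and secreted frizzled-related members was not tested.

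In fat the macrophage markers summed to 713 RPKM in the hyperinsulinemic monkey and 178 to 545 RPKM in the controls (7 tested, 0 called, median log2 difference 0.76). Markers of T and NK cells summed to 26.7 RPKM in the hyperinsulinemic monkey and 6.03 to 16.4 RPKM in the controls (4 tested, 0 called, median 1.21), and fibroblast markers to 3033 RPKM in the hyperinsulinemic monkey and 1568 to 2915 RPKM in the controls (9 tested, 0 called, median −0.08). Endothelial markers were at 239.8 RPKM in the hyperinsulinemic monkey and 139.7 to 210.8 RPKM in the controls (7 tested, 0 called, median −0.03). Of these, *PECAM1* and *VWF* lay above every control, *TIE1* below every control and the others within. Markers of Schwann cells and nerve were at 169.9 RPKM in the hyperinsulinemic monkey and 106.1 to 158.2 RPKM in the controls (2 tested, 0 called, median 0.30). *PMP22* alone was at 165.4 RPKM in the hyperinsulinemic monkey. Mesothelial markers had a median log2 difference of 0.03. The part of these cells in the higher fat values of *WNT2B*, *RSPO1*, *RSPO3*, *DKK1* and *DKK3* was not tested.

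Beyond the members, other genes of the pathway differed between the tissues of the controls in both directions. Of 39 such genes tested 15 were called higher in fat and 9 higher in muscle, where 29.6% and 22% of all genes were. Of the 15, 9 passed the filter through fat alone, so that their direction was partly set by it, namely *LGR4*, *PRICKLE1*, *PRICKLE2*, *PTK7*, *ROR2*, *TLE3*, *VANGL1*, *VANGL2* and *WIF1*. *WLS*, which carries Wnt ligands to the cell surface, was higher in fat by 2.11 on the log2 scale (edgeR adjusted p = 6.0e-05), the only one called of 2 tested secretion genes. Of the other extracellular antagonists 3 of 11 were tested, and *WIF1*, a Wnt-binding inhibitor, was higher in fat by 2.81 and *KREMEN1*, a partner of the dickkopf proteins, higher in muscle (−2.23 for fat minus muscle). *LGR4*, an R-spondin receptor, was the only 1 of 5 genes of R-spondin response and receptor turnover to be tested and was higher in fat by 1.74. The lower filter, a mean of 10 reads, let all 5 be tested, and 1 was called higher in fat and 3 higher in muscle, where 28.1% and 20% of all genes were. The median log2 difference of the 5 was then −3.38. In control fat *RNF43*, *LGR5* and *LGR6* were at 0 to 0.09, 0 to 0.02 and 0 to 0.23 RPKM. In control muscle they were at 1.04 to 1.92, 0.04 to 0.40 and 0.09 to 0.47 RPKM. These genes passed the lower filter mainly through muscle, so their direction was partly set by it. The receptors *PTK7* and *ROR2*, at 3.16 and 2.93, were called higher in fat of 3 alternative receptors tested.

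Beside the counts with TMM and the filter of 1 RPKM that follow, 29.6% of all genes tested were called higher in fat and 22% higher in muscle. All 7 tested genes of planar polarity were called, 4 higher in fat, with *PRICKLE2* at 2.61 and *PRICKLE1* at 2.07, and 3 higher in muscle, with *PRICKLE3* at −2.22. The 4 higher in fat all passed the filter through fat alone. In the cytoplasmic core of the pathway 2 of 11 tested genes were called, *DVL1*, a dishevelled protein that acts just below frizzled, at −4.00 and *AXIN1*, a scaffold of β-catenin breakdown, at −1.44, both higher in muscle. Of 9 nuclear factors tested 3 were called higher in fat, with *TLE3* at 2.10, and 3 higher in muscle, with *TLE2* at −2.12 and *TLE4* at −1.84. Of 13 frequently used target genes 3 were tested and all were called higher in fat, *CCND1* at 2.07, *MYC* at 1.65 and *CD44* at 1.08. At the lower filter, a mean of 10 reads, 7 were tested, of which 3 were called higher in fat and 4 were not called. Of all genes 28.1% were called higher in fat at that filter. *AXIN2*, the usual readout of the pathway, was not analysed here. With mapped totals and the filter of 1 RPKM the calls in muscle were lost for all of these but *DVL1* (−2.61). Every gene named as higher in fat was still called. With mapped totals 8 of 11 tested genes of the cytoplasmic core were called higher in fat and 1 higher in muscle. For the nuclear factors these were 6 and 0 of 9, and for planar polarity 4 and 0 of 7. Over all 11173 genes tested, 7040 were called higher in fat and 799 higher in muscle with that scaling. In the hyperinsulinemic monkey against controls 0 genes of these lists were called in either tissue.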

How the data were processed

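Fat and muscle of 5 monkeys gave 10 libraries, grouped by the labels. The authors mapped reads with TopHat (1.2.0 in the submitters' processing notes, another release in the methods) and used uniquely mapped reads. Which counter, build and annotation they used is not given in the sources used here. The deposited tables hold read counts per gene and RPKM, which was recomputed from the counts, the length of the longest transcript and the mapped total. Symbols came from an Ensembl name table. Coordinates are those of the tables, counted from 1, and promoters and proteins were not used here.

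Counts were tested with edgeR 4.0.16 in R 4.3.3 (TMM, quasi-likelihood, two-sided) in genes that averaged 1 RPKM or more, with Benjamini-Hochberg adjusted p values over all genes tested, and were checked with limma 3.58.1 and DESeq2 1.42.0. The tests were tried on simulated counts first. Calls were made at an adjusted p under 0.05 (between tissues also a log2 difference of 1 or more either way). Intervals of a difference are 95% intervals of the fit, and limits at a count of 0 use 3 reads per library and cover counting error only. Alternatives were pseudocounts of 1 and 0.1, median-of-ratios scaling, mapped totals, no filter, filters at 10 reads and 5 RPKM, leaving out each control, all 10 libraries in one fit, the animal as a replicate block, and leaving out the fat libraries of rhesus_920401 and rhesus_940313.

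Fat and muscle came from the same animals, which is what pairs them. The deviations of the paired libraries from the control means correlated at 0.14, −0.21, 0.09 and 0.15 over 7881 genes in rhesus_920401, rhesus_940129, rhesus_940313 and rhesus_950509.

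Named with values in every library were members that averaged 1 RPKM or more in either tissue, members called in any comparison, and members in which the hyperinsulinemic monkey lay at least 2-fold outside the control range with at least 20 reads in 1 library. *DKK4*, *WNT5B*, *WNT7B* and *WNT9B* were named after their values were seen, as were the genes under "Other observations". In other pathway lists up to 3 called genes with the largest difference were named. The members and lists were chosen with earlier results of these data known. The samples are separate animals.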

Additional observations from a re-analysis of the deposited data

Results flagged for a closer look

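*DKK3* in muscle of control rhesus_940129 was far from the other controls. It was at 4.87 RPKM there, against 1.27 to 1.55 RPKM in the other 3 controls, and its gap to the nearest of them was 92.3% of the range of the group. Of 25 groups of 4 controls examined, 1 stood out in this way, where chance gives about 1 group in 20. *SFRP2* and *SFRP4*, at 7.42 and 3.52 RPKM, were also above the median control in this library. The slow fiber genes *MYH7* and *TNNT1* were highest in it too, at 531 and 651 RPKM. The other 3 controls were at 45.5 to 80.1 and 69.7 to 130 RPKM. The part of fiber type in these values was not tested.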

How the results depend on the processing

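Of 618 values of single members under the alternatives, 581 kept their direction and their side of the threshold, 6 lost a call, 3 gained one and 28 changed sign. None of the 28 was called with TMM, and 2 of them were called under the alternative, *FZD8* between the tissues with mapped totals and with limma at a pseudocount of 0.1. With a filter at 5 RPKM 3325 genes and 6 members were called between the tissues, with fewer tested. With the animal as a replicate block these were 5712 genes and 9 members, *RSPO3* being lost (2.72), and 0 genes for the difference between tissues in the effect of the hyperinsulinemic monkey. In muscle the genes called for the hyperinsulinemic monkey were 1 with limma at either pseudocount, 88 with DESeq2, 1 with median-of-ratios scaling, 3 with mapped totals and 10 with no filter, and 0 to 14 when a control was left out, the 14 without rhesus_940313. In fat they were 11 with DESeq2, 33 without the fat libraries of rhesus_920401 and rhesus_940313, and 0 to 6 when a control was left out, the 6 without rhesus_920401. DESeq2 called 16 genes for the difference between tissues. With TMM-scaled values the hyperinsulinemic monkey was below every control for 2 tested members in fat (*WNT10B* and *WNT9A*, where 14.3% of all genes were) and 8 in muscle. The causes were not tested.

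Between the tissues *FZD8* was at 0.83 and 1.22 with limma at pseudocounts of 1 and 0.1, 1.34 with mapped totals, 0.057 without the fat libraries of rhesus_920401 and rhesus_940313, and −0.22 to 0.065 when a control was left out. In the same order *LRP5* was at 0.67, 0.71 and 0.77 and *SFRP2* at 0.93, 1.12 and 0.96 in the first 3 of these. In fat, for the hyperinsulinemic monkey against controls, *FZD4* was at −0.035 with all 10 libraries, −0.11 without the fat libraries of rhesus_920401 and rhesus_940313, and −0.11 to 0.25 when a control was left out. *LRP5* was at −0.11 without those fat libraries and −0.077 to 0.28 when a control was left out, *SFRP2* at −0.082 to 0.37 when a control was left out, and *SFRP4* at 0.0021 and 0.0063 with limma and 0.10 without those fat libraries. For the difference between tissues *SFRP1* was at −0.17 with limma at a pseudocount of 1, −0.012 with mapped totals, −0.027 with no filter, −0.029 with a filter at 10 reads, and −0.30 to 0.36 when a control was left out. Without the fat libraries of rhesus_920401 and rhesus_940313 *FZD6* and *WNT10B* fell under the filter of the tissue comparison. Counts of 0 to 113 reads limit *DKK4*, *FZD3*, *FZD10*, *WNT3*, *WNT5B* and *WNT7B*.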

Other observations

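Among other genes of the pathway, chosen after their values were seen, a few had an unadjusted p under 0.05 in edgeR without being called. Of all genes tested, 9.08% in muscle and 2.39% in fat had such a p. *PTK7*, a receptor-like pseudokinase of planar polarity, was at 15.2 RPKM in fat of the hyperinsulinemic monkey, against 5.73, 6.24, 5.07 and 2.90 RPKM in controls rhesus_920401, rhesus_940129, rhesus_940313 and rhesus_950509 (log2 difference 1.40, adjusted p = 0.9999). *TCF7L2*, a nuclear partner of β-catenin whose locus is associated with type 2 diabetes in humans, was at 0.48 RPKM in muscle of the hyperinsulinemic monkey, against 1.28, 1.04, 0.82 and 1.75 RPKM in those controls (−1.55, adjusted p = 0.527). In fat it was at 11.3 RPKM in the hyperinsulinemic monkey, against 11.4, 8.75, 7.97 and 8.40 RPKM in those controls. *APC*, a scaffold of β-catenin breakdown, was at 3.03 RPKM in muscle of the hyperinsulinemic monkey, against 0.83, 1.26, 0.71 and 1.63 RPKM in those controls (1.27, adjusted p = 0.496), and *TLE2*, a co-repressor, at 3.90 RPKM, against 9.36, 5.69, 9.09 and 6.19 RPKM (−1.13, adjusted p = 0.496).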
